A study of Mus musculus with 24 samples.

Results

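The genes described here are the mouse genes of the interferon response and of class I antigen processing that the array carried. They were chosen by symbol and not by any measured value. A gene was taken when the platform annotation gave its probe 1 symbol and that symbol either began with Ifi, Ifn, Irf, Isg, Oas, Gbp, Igtp, Irgm, Iigp or Trim, began with Mx or Stat followed by a digit, or was one of Usp18, Rsad2, B2m, Tap1, Tap2, Tapbp, Psmb8, Psmb9 and Psmb10. This gave 49 genes on 52 probes, of 5908 genes with a single symbol and 8750 features in all. Another 11 probes matched by 1 of several symbols and were left out. By role there were 3 ligand and receptor genes, 11 signal and transcription factors and 10 antiviral and other induced genes. The others were 6 GTPases, 4 class I processing genes and 15 Trim genes. The ligand and receptor role held the receptor chains Ifnar1 and Ifngr1 and the noncoding RNA Ifngas1, and no interferon gene.

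RNA came from lung after 10 Gy to the thorax and from skin after 30 Gy to the hind leg, taken 1 h, 12 h or 72 h later, and from lung and skin of mice that were not irradiated. Each of these groups held 1 array from every inbred strain, A/J, then C57BL/6J, then C3H/HeMs, and females aged 12 to 13 weeks were used, and each of the 24 arrays held RNA pooled from 3 mice. Every pool was hybridised against a common reference mixed from 10 organs, with lung RNA in Cy3 and skin RNA in Cy5. A level is given below as the log2 ratio of sample over reference, and a change is the level on an irradiated array minus the level on the control array of the same strain and tissue. Where a gene is given 3 levels or changes at 1 time, the first is from A/J, the next from C57BL/6J and the last from C3H/HeMs. Each group had 3 arrays from 3 strains, so a p-value rests on how the strains' pools vary and not on single mice, and precision is limited by how few arrays there are.

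The tissues matched their labels, since all 8 epidermal markers were higher in non-irradiated skin than in non-irradiated lung and 5 of 6 lung epithelial markers were lower in skin. In lung, 4 arrays (A/J and C3H/HeMs at 12 h and 72 h) stood apart from the other 8: correlations over all features ran from 0.80 to 0.89 between these sets, from 0.89 to 0.94 among the 4 and from 0.90 to 0.96 among the 8. Lung differences of single genes and medians over genes at 12 h and 72 h are therefore set beside the value of C57BL/6J, whose arrays all belong to the 8. Skin arrays correlated at 0.77 to 0.95. In whole tissue, fewer cells of a type and less RNA per cell cannot be told apart. Of the 3 genes with a pair of probes, Rsad2 had probes that followed each other (r = 0.83 over 12 lung and 0.92 over 12 skin arrays), whereas those of Ifi203 (0.39 and 0.27) and Irf2bpl (-0.48 and -0.19) did not, so both means are uncertain. The Ifi200, Oas1, Gbp, immunity-related GTPase and Trim30 genes have close copies that can share a cDNA probe.

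Interferons are secreted proteins that act on receptors of almost all cells. Type I interferons, through Ifnar1 and Ifnar2, activate a complex that holds Irf9 and binds interferon-stimulated response elements in the promoters of antiviral genes. Interferon gamma, through Ifngr1 and Ifngr2, acts on promoters with gamma-activated sites and is a strong inducer of guanylate binding proteins, immunity-related GTPases, immunoproteasome subunits and the Tap peptide transporter. These last genes cut cytosolic proteins into peptides and load them onto class I molecules, whose light chain is B2m, for display to cytotoxic T cells.

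The promoters of 6 genes on which the results below turn are shown because each holds a match to the interferon-stimulated response element. Each sequence is the 150 bases before the RefSeq start site (GRCm38.p6), written 5′ to 3′ on the strand of the gene, with matches to the element in capitals (GAAA, any 2 bases, then GAAA, or the reverse complement TTTC, any 2 bases, then TTTC). The regions are chr19:34640739-34640888 for Ifit1 (plus strand), chr12:26456453-26456602 for Rsad2 (minus), chr1:173942493-173942642 for Ifi203 (minus), chr1:173741810-173741959 for Ifi207 (minus), chr11:58199406-58199555 for Igtp (plus) and chr5:120907526-120907675 for Oas1a (minus).
Ifit1: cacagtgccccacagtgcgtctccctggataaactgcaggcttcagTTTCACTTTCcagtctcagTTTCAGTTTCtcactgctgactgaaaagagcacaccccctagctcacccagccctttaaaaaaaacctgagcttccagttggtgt
Rsad2: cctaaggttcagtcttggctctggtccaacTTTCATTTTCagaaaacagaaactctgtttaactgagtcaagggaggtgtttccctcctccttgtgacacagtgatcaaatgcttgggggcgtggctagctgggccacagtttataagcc
Ifi203: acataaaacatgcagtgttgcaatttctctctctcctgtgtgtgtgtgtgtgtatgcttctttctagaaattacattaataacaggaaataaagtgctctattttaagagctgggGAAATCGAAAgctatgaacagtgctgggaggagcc
Ifi207: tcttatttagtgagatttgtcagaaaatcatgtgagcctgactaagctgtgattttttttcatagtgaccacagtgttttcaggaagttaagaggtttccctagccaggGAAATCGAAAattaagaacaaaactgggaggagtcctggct
Igtp: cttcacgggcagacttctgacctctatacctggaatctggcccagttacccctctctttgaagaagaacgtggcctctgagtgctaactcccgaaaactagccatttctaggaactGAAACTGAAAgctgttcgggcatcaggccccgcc
Oas1a: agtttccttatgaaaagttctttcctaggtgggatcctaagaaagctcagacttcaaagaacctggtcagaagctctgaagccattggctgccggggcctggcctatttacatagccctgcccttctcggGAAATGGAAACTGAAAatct

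A promoter window, from 250 bases before to 50 bases after the start, was found for 45 of the 49 genes. The response element, searched on both strands, lay in a window of 18 of these 45 (40.0%), against 3.44% of all 32851 windows of the same length and 3.99% of the 27025 genes they belong to. The gamma-activated site, searched as TTCNNNGAA, lay in 11 of 45 (24.4%), against 8.3% of all windows and 9.55% of all genes. Oas1a held overlapping matches to the response element, and Ifit1 a pair of separate ones. Ifi203 and Ifi207 shared the letters of theirs, GAAATCGAAA. Several of the genes are neighbours in RefSeq's gene table (GRCm38.p6): no protein-coding gene lies between Trim30a and Trim30d, Igtp and Irgm2, Tap1 and Psmb8, or B2m and Trim69, and 3 lie between Ifi207 and Ifi203. A match is a description of these letters only.

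In skin at 12 h the genes lay above the controls more often than other features did, though none passed the test alone. Of the 49 genes 40 were higher on average (background 45.3%), 20 were higher in all 3 strains (background 10.3%) and 13 had all 3 irradiated arrays above all 3 controls (background 3.63%). The median change of the 49 was 0.44 on the log2 scale, against -0.03 over all features. With limma and Benjamini-Hochberg adjustment over all features 0 of 49 genes passed, as did 0 of 8750 features (0%). At an unadjusted p under 0.05 there were 15 of 49 genes, all higher, against a background of 2.99% higher and 6.71% in either direction. The strains differed in size, with a median change of 0.74 for C57BL/6J, but 0.28 for A/J and 0.22 for C3H/HeMs. At least 2-fold higher were 16 genes of C57BL/6J (background 4.61%), 0 of A/J (background 1.39%) and 6 of C3H/HeMs, where the background was 11.4% and 6 genes are 12.2%. At least 2-fold lower were 1 gene of C57BL/6J (background 5.49%), 0 of A/J (background 2.06%) and 1 of C3H/HeMs (background 6.41%).

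**Figure D1:**
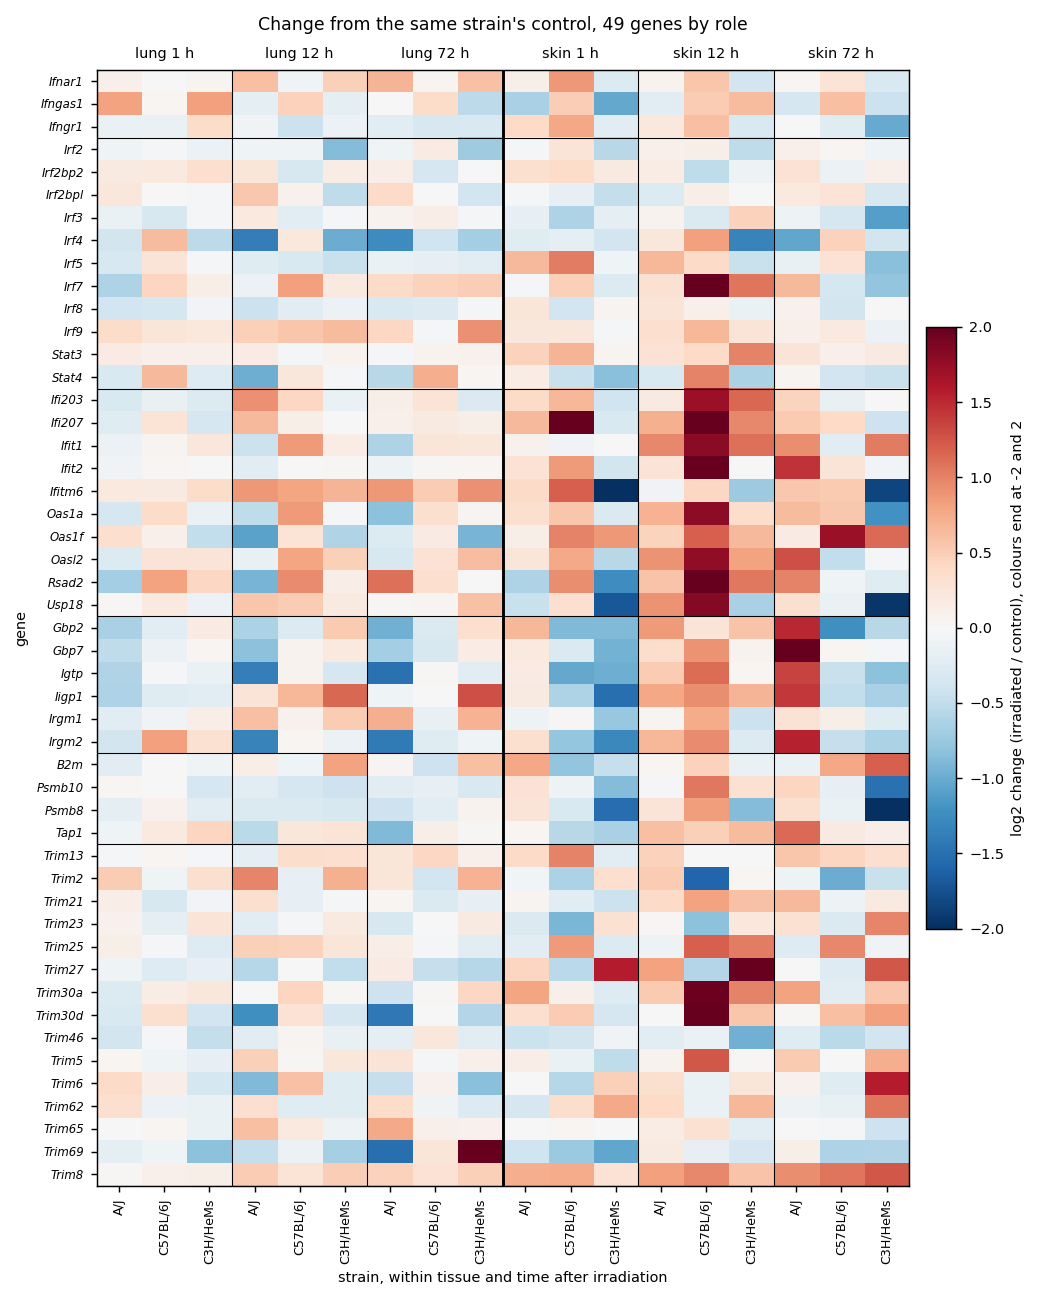
Log2 change of each of the 49 genes (rows, by role with lines between roles: ligands and receptors, signal and transcription factors, antiviral and other induced genes, GTPases, class I processing, Trim) in lung and skin at 1 h, 12 h and 72 h, with 1 column per strain. The skin 12 h column of C57BL/6J holds most of the dark red cells (16 genes at least 2-fold higher), and the GTPase block is red at 72 h in skin of A/J alone among the strains.

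The C57BL/6J skin array at 12 h also differed in leukocyte and epidermal markers. The mean level of 10 B cell markers was -0.20 on it and -1.51 on its control, that of 8 macrophage and monocyte markers 1.43 and -0.12, that of 12 T and NK cell markers 0.21 and -0.40, that of 8 neutrophil markers -0.08 and -1.13, and that of 8 epidermal markers 4.51 and 5.20. In A/J the same lists lay at -1.91 against -1.52 in the control (B cell), 0.36 against 0.04 (macrophage and monocyte) and -0.55 against -0.47 (T and NK cell). In C3H/HeMs neutrophil markers had a mean level of 0.12 at 12 h and -0.99 in the control, and 13 skeletal muscle markers -1.33 and 1.25. Over the group, the B cell list ranged from -1.93 to -0.20 at 12 h and from -1.52 to -1.48 in controls, and the macrophage list from 0.32 to 1.43 and from -0.12 to 0.63. The part of these cells in the interferon values was not tested. Without the C57BL/6J array at 12 h, 34 of 49 genes were still higher (background 48.6%) with a median of 0.25, and 4 genes rather than 15 had an unadjusted p under 0.05 (background 2.62% higher). Without all skin arrays of that strain the figures were 36 genes (background 50%), 0.23 and 2 genes (background 1.84% higher).

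The antiviral and other induced genes had the highest median change of the 6 roles in skin at 12 h. It was 0.98, with 1.80 for C57BL/6J, 0.64 for A/J and 0.72 for C3H/HeMs, and 8 of 10 were higher in all 3 strains. Ifit1, which binds viral RNA lacking a proper cap, had levels of 1.08, 2.21 and 0.95 at 12 h, against 0.13, 0.41 and -0.16 in their controls. All 3 irradiated arrays thus lay above all 3 controls, by 1.29 ± 0.34 on the log2 scale (SE, n = 3 each), with an adjusted p of 0.465 by limma. Ifi207, a DNA-sensor-like gene of the Ifi200 family, had 0.48, 1.72 and 1.37 at 12 h, against -0.23, -0.48 and 0.41 in controls, a difference of 1.29 ± 0.41 (SE) with adjusted p = 0.604 by limma. Rsad2 (viperin), which makes a chain-terminating nucleotide, had -0.27, 1.38 and -0.10, against -0.85, -1.24 and -1.15. Its mean difference of 1.42 ± 0.53 (SE, limma adjusted p = 0.665) was above that of Ifit1, but it varied more between strains. Oasl2, of the oligoadenylate synthetase family, had 0.11, 1.13 and 0.42 at 12 h, against -0.78, -0.64 and -0.39 in controls, again with no overlap between the groups.

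Other genes of the group were carried more by C57BL/6J. Oas1a, which makes the oligoadenylates that switch on RNase L, had 0.35, 1.79 and 1.18 at 12 h, against -0.35, -0.00 and 0.82 in controls, so that the groups overlapped. Ifit2 had -0.56, 1.52 and -0.58, against -0.82, -0.86 and -0.59, and was thus more than 2-fold higher in C57BL/6J alone, by 2.38. Usp18, the protease that removes Isg15 from proteins and dampens receptor signalling, had 0.26, 1.44 and 0.19 at 12 h, against -0.64, -0.39 and 0.84, and was lower than its control in C3H/HeMs. Ifitm6 was the only gene of the group with a negative mean change there, since its levels of 1.81, 1.82 and 2.64 stood against 1.88, 1.41 and 3.37 in controls.

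Among the signal and transcription factors, Irf7, Irf9 and Stat3 had an unadjusted p under 0.05. Irf7, which drives the later wave of type I interferon and is itself interferon-induced, had -0.57, 1.45 and 0.22 at 12 h, against -0.88, -0.65 and -0.85 in controls, a difference of 1.16 ± 0.43 (SE, limma adjusted p = 0.665). Irf9, the DNA-binding subunit of the type I complex, had 0.10, 0.67 and 0.28, against -0.24, 0.00 and 0.03, a smaller difference of 0.42 ± 0.18 (SE). Stat3, which transmits interleukin 6 and related cytokines, had 1.66, 1.59 and 2.37, against 1.37, 1.20 and 1.38. In each of these 3 genes every irradiated array lay above every control. Over the 11 factors of this group the median change was only 0.08, and 3 were higher in all 3 strains. Irf4, a lymphocyte factor, went different ways in the strains, with 1.41, 1.02 and 0.04 at 12 h against 1.18, 0.20 and 1.37 in controls.

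The GTPases, the class I genes and the ligand and receptor genes had median changes between those of the antiviral group and the factors. The class I median was 0.28 and that of the ligand and receptor genes 0.17. All 6 GTPases had positive mean changes at 12 h (median 0.50, with 0.59, 0.91 and 0.05 by strain), 4 of them in all 3 strains, and none had an unadjusted p under 0.05. Igtp, an immunity-related GTPase, had -2.02, -1.40 and -2.10, against -2.54, -2.51 and -2.14, so the groups stayed apart, but in C3H/HeMs only just. Iigp1, an effector GTPase that disrupts pathogen vacuoles, had -2.09, -1.63 and -1.80, against -2.86, -2.56 and -2.48. Tap1, a subunit of the peptide transporter, had 1.74, 1.56 and 1.78 at 12 h, against 1.14, 1.08 and 1.15 in controls, a difference of 0.57 ± 0.24 (SE, limma adjusted p = 0.723) with little variation between strains. For the immunoproteasome subunit Psmb8 the groups overlapped widely, with -0.67, 0.05 and 0.08 against -0.92, -0.79 and 0.94. B2m and both receptors, Ifnar1 and Ifngr1, overlapped with their controls as well.

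Of the 15 Trim genes, ubiquitin ligases of which several restrict viruses, 11 were higher on average in skin at 12 h and 4 in all 3 strains. Trim30a, a rodent gene that limits inflammatory signalling, had -0.42, 1.78 and 0.09, against -0.94, -0.18 and -0.91, a difference of 1.16 ± 0.41 (SE, limma adjusted p = 0.646), with the A/J array at 12 h below the C57BL/6J control. Its neighbour Trim30d had -0.34, 1.99 and -0.10, against -0.33, -0.28 and -0.65, and so stood out in C57BL/6J alone. Trim25, which ubiquitinates the RNA sensor RIG-I, had -0.39, 0.23 and 0.00, against -0.30, -0.96 and -1.02. Trim46 was the only one of the 49 genes lower in all 3 strains, with -0.66, -0.56 and -1.09, against -0.42, -0.43 and -0.12.

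**Figure D2:**
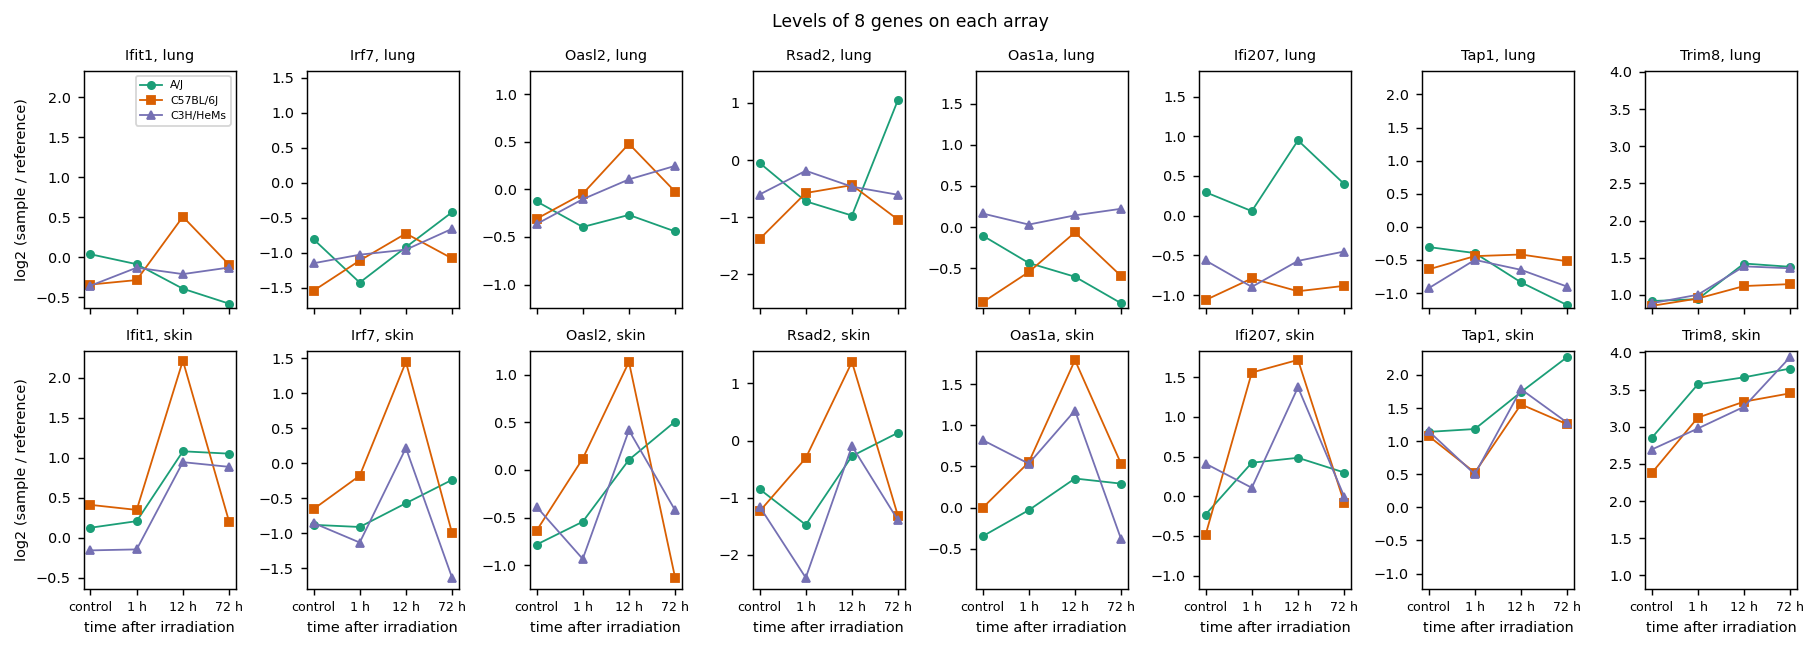
Levels (log2 of sample over reference) of 8 genes on each lung array (top) and skin array (bottom), by time after irradiation, with 1 line per strain. In skin the C57BL/6J line peaks at 12 h for Ifit1, Irf7, Oasl2, Rsad2, Oas1a and Ifi207, while Trim8 lies above its control at every time in every strain.

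Trim8, a ubiquitin ligase that acts on cytokine and NF-kappaB signalling, lay above every control array at each time in skin. It had 3.57, 3.12 and 2.98 at 1 h, 3.66, 3.34 and 3.27 at 12 h and 3.78, 3.45 and 3.94 at 72 h, and 2.85, 2.38 and 2.69 without irradiation. The difference was 0.58 ± 0.20 at 1 h, 0.78 ± 0.20 at 12 h and 1.08 ± 0.20 at 72 h (SE, n = 3 each), and the 3 times share their controls. The adjusted p by limma was 1, 0.457 and 0.561 in the fit of the skin arrays. When all 24 arrays shared 1 estimate of the spread, it was 0.028 at 12 h and 0.00764 at 72 h. That fit draws on the lung arrays too, where the SE of Trim8 was smaller, so it can understate the spread in skin. Oas1f, a copy in the Oas1 cluster, and Stat3 were the other genes above their own control in each strain at each time in skin. The levels of Oas1f were 3.67, 2.75 and 4.25 at 1 h, 4.0, 2.96 and 4.03 at 12 h, 3.71, 3.49 and 4.51 at 72 h, and 3.55, 1.76 and 3.38 in controls. The difference of Oas1f at 72 h was 1.01 ± 0.28 (SE, limma adjusted p = 0.65), with changes of 0.16, 1.73 and 1.13, and the groups overlapped through the low level of C57BL/6J.

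At 72 h in skin the genes no longer lay together above their controls. Of the 49 genes 30 were higher on average (background 49%), 7 in all 3 strains (background 14.7%) and 2, Tap1 and Trim8, with all arrays above all controls (background 4.19%). The median change was 0.09, against -0.01 over all features. By limma 0 of 49 genes passed the adjusted threshold (background 0%) and 2, Trim8 and Oas1f, had an unadjusted p under 0.05 (background 7.39%). By strain the median change was 0.30 for A/J, near its 0.28 at 12 h. Those of C57BL/6J and C3H/HeMs were -0.10 and -0.24, against 0.74 and 0.22 at 12 h.

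The GTPases also differed between the strains at 72 h. In A/J skin at 72 h Gbp7 had a level of 2.54, against -0.40 in its control, Gbp2 0.29 against -1.22, Irgm2 -0.48 against -2.02, Iigp1 -1.45 against -2.86 and Igtp -1.19 against -2.54. These 5 of 6 GTPases were at least 2-fold higher in A/J, as were Ifit2, Oasl2 and Tap1, which made 8 of 49 genes (background 2.07%), while 1, Irf4, was at least 2-fold lower (background 1.69%). The median change of the 6 GTPases at 72 h was 1.46 for A/J, but -0.45 for C57BL/6J and -0.59 for C3H/HeMs. Tap1 had 2.27, 1.25 and 1.28 in the 3 strains at 72 h, against 1.14, 1.08 and 1.15 in controls. Marker lists of the A/J array at 72 h lay near its control: -1.61 against -1.52 for B cells, -0.53 against -0.47 for T and NK cells, 0.15 against 0.04 for macrophages and -0.79 against -0.87 for neutrophils. With 1 array per strain and time, this A/J pool has no replicate, and the difference between strains in their response to irradiation was passed by 0 of 49 genes (limma F test of strain by irradiation over the mean of the 3 times, background 0%, with 2 genes, Trim27 and Ifitm6, at an unadjusted p under 0.05, background 3.35%). In lung the same test was passed by 0 of 49 genes (background 0.0229%), with 1 gene, Gbp2, at an unadjusted p under 0.05 (background 2.25%). Neither fit held a term for time, so the 3 times stood in as replicates and changes between times went into the error. The test can therefore say little on a strain difference at 1 time only. In C3H/HeMs at 72 h, 7 genes were at least 2-fold higher (B2m, Ifit1, Oas1f, Trim27, Trim6, Trim62 and Trim8, background 13.1%) and 7 at least 2-fold lower (background 9.13%). Among the lower ones were Psmb8 with -1.64 against 0.94 and Usp18 with -1.10 against 0.84, whose C3H/HeMs control was the highest of the 3 controls. The 13 skeletal muscle markers had a mean level of -1.01 on that array and 1.25 on its control, and their part was not tested.

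At 1 h in skin 22 of 49 genes were higher (background 42.9%), with a median change of -0.10, against -0.05 over all features. By limma 0 of 49 passed (background 0%), with 3 at an unadjusted p under 0.05 (background 4.37%), namely Trim8, Oas1f and Trim69. Trim69, a ligase expressed chiefly in testis, had -2.09, -2.26 and -2.43 at 1 h, against -1.70, -1.52 and -1.38 in controls, with all irradiated arrays below all controls, by -0.73 ± 0.21 (SE, limma adjusted p = 1). The share of all features apart in this way in skin at 1 h is not given, here or for Trim8. Irf5, a factor of myeloid cells, had 1.94, 1.53 and 1.26, against 1.30, 0.51 and 1.34. The C57BL/6J array already had Ifi207 at 1.56, against -0.48 in its control, whereas Ifit1 was at 0.35 against 0.41. In C3H/HeMs 1 gene, Trim27, was at least 2-fold higher (background 3.27%) and 8 were at least 2-fold lower (background 5.14%), among them Rsad2, Usp18, Psmb8 and Iigp1, and the macrophage list stood at -0.19 against 0.63 in its control. The part of those cells was not tested.

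**Figure D3:**
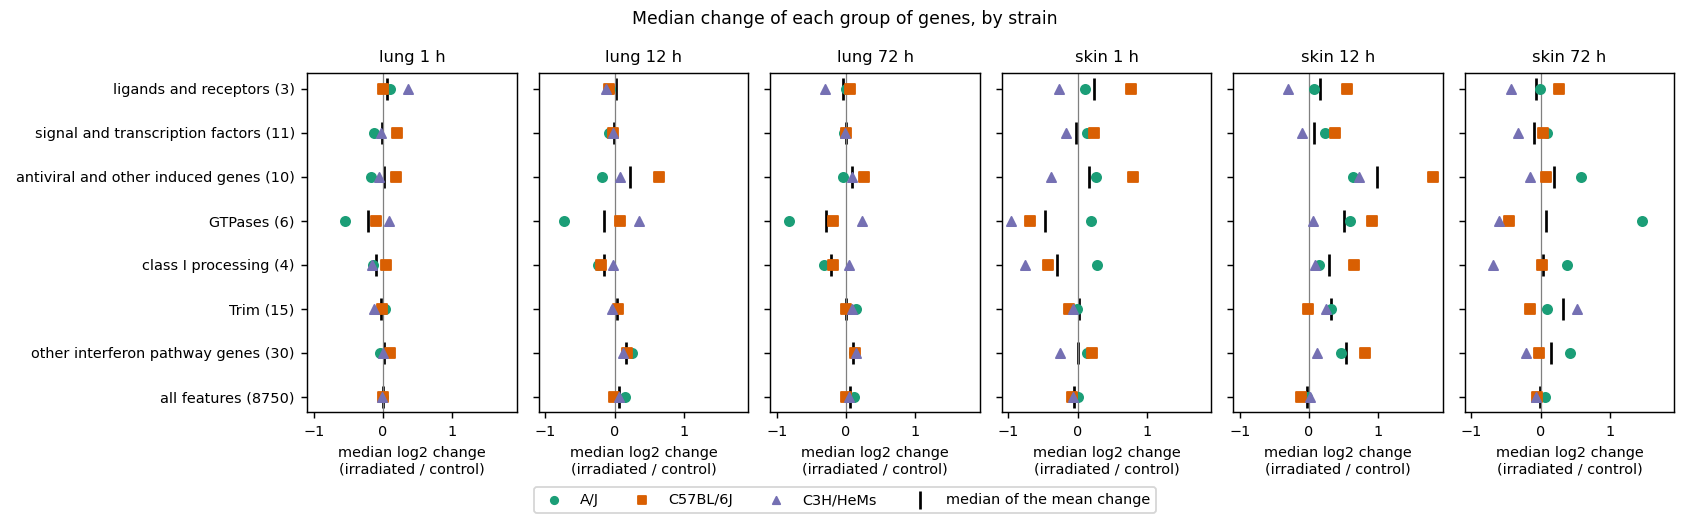
Median log2 change of the genes of each role, of 30 other interferon pathway genes and of all 8750 features, by tissue and time; symbols are strains and black bars the median of the mean changes. The antiviral group lies right of 0 in all 3 strains at 12 h in skin (0.64, 1.80 and 0.72), and the GTPase median of A/J at 72 h in skin (1.46) lies far from those of the other strains.

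In lung the genes as a group stayed at the level of all features. The median change was -0.02 at 1 h, 0.02 at 12 h and -0.01 at 72 h, against -0.01, 0.07 and 0.05 over all features. In C57BL/6J alone it was 0.09 at 12 h and 0.02 at 72 h. The numbers with positive changes were 21, 26 and 23 of 49 (backgrounds 48%, 59.4% and 57.5%). By limma 0 of 49 genes passed at any time (backgrounds 0.0114%, 0.114% and 0.114%). At an unadjusted p under 0.05 there were 0, 7 and 6 genes (backgrounds 2.24%, 12.1% and 12.4%), shares near their backgrounds. The antiviral group had a median of 0.22 at 12 h in lung, with 0.65 for C57BL/6J, but -0.18 for A/J and 0.08 for C3H/HeMs. The difference between the skin and the lung response was passed by 0 of 49 genes at 1 h, 12 h and 72 h (limma, all 24 arrays, backgrounds 0%), with 1, 6 and 3 genes at an unadjusted p under 0.05 (backgrounds 2.01%, 8.42% and 12.8%). The largest of these at 12 h was in Trim30d (1.36 ± 0.55, SE, skin change minus lung change), followed by Trim27 and Oas1f. In C57BL/6J alone Trim30d changed by 2.27 in skin and 0.29 in lung. Trim27 of C57BL/6J had -0.30 at 12 h against 0.29 in its control in skin, and 0.96 against 0.95 in lung. That strain thus went against the direction of the Trim27 difference. Oas1f of C57BL/6J had 2.96 against 1.76 in skin, and 0.29 against 0.02 in lung. Skin had 30 Gy to the leg and lung 10 Gy to the thorax, so tissue, dose and irradiated site cannot be told apart here.

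Ifitm6 had the smallest p of the 49 genes in lung at 12 h and 72 h. It belongs to the interferon-induced transmembrane family, whose other members block virus entry. Its levels were 0.72, 0.73 and 0.86 at 1 h, 1.39, 1.35 and 1.17 at 12 h and 1.40, 1.06 and 1.39 at 72 h, and 0.53, 0.55 and 0.48 without irradiation. Every irradiated array lay above every control. The difference was 0.78 ± 0.14 at 12 h (SE, n = 3 each, limma adjusted p = 0.116) and 0.76 ± 0.14 at 72 h (limma adjusted p = 0.143). In C57BL/6J alone it was 0.79 at 12 h and 0.51 at 72 h. Neutrophil markers of C57BL/6J lung had a mean level of -0.13 at 12 h and -0.41 at 72 h, against -0.90 in the control, whereas those of A/J lay at 0.21 and 0.06, against 0.29. The part of those cells was not tested.

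Trim8 and Irf9 lay above their controls in lung too. Trim8 had 0.94, 0.95 and 1.00 at 1 h, 1.42, 1.12 and 1.38 at 12 h and 1.38, 1.15 and 1.36 at 72 h, and 0.92, 0.85 and 0.89 in controls, with no overlap at any time. Its difference at 12 h was 0.42 ± 0.12 (SE, limma adjusted p = 0.335), and 0.27 in C57BL/6J alone. Irf9 had 0.37, 0.31 and 0.15 at 1 h, 0.47, 0.64 and 0.57 at 12 h and 0.41, 0.06 and 0.85 at 72 h, and -0.00, 0.08 and -0.06 in controls. The groups were apart at 1 h and 12 h and overlapped at 72 h through C57BL/6J. Trim25 had 0.65, 0.50 and 0.26 at 12 h, against 0.18, 0.04 and 0.03. Ifnar1, the receptor chain of type I interferon, had 0.83, 0.32 and 0.78 at 72 h, against 0.15, 0.26 and 0.18. The C57BL/6J value was only 0.06 above its control, so the difference rests on the strains whose late arrays stood apart.

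Irf4 and Irf8, factors of lymphocytes and myeloid cells, were lower on average in irradiated lung. Irf4 had -0.64, 0.45 and -0.38 at 12 h and -0.51, -0.15 and -0.07 at 72 h, against 0.75, 0.24 and 0.61 in controls, a difference at 72 h of -0.78 ± 0.28 (SE, limma adjusted p = 0.354). In C57BL/6J alone Irf4 differed by 0.20 at 12 h, against the direction of the other strains, and by -0.39 at 72 h. At 1 h Irf4 had 0.38, 0.88 and 0.09, so C57BL/6J lay above its control then too, and A/J and C3H/HeMs below theirs. Irf8 had -0.14, -0.18 and -0.09 at 1 h, -0.19, -0.05 and -0.16 at 12 h and -0.06, -0.10 and -0.06 at 72 h. Its controls stood at 0.24, 0.17 and -0.04. These were small steps, with all irradiated arrays below all controls at every time, and the 3 times share their controls. At 12 h the groups were barely apart, with C57BL/6J at -0.047 and the C3H/HeMs control at -0.041. The share of all features apart in this way in lung is not given, here or for Ifitm6, Trim8 and Irf9. Of 10 B cell markers, 0 had a positive change at 12 h and 2 at 72 h, and their mean level ranged from -1.30 to -1.15 at 12 h and from -1.34 to -0.73 at 72 h, against -0.69 to -0.14 in controls. Of 12 T and NK cell markers 1 had a positive change at 12 h. The part of these cells in the values of Irf4 and Irf8 was not tested.

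Single pools of lung departed from the rest. Rsad2 stood at 1.06 in A/J at 72 h, against -0.05 in the A/J control, and between -1.38 and -0.19 on all arrays of the other strains. Trim69 stood at 0.95 in C3H/HeMs at 72 h and between -2.88 and -1.09 on all other lung arrays. In A/J lung the control was high in GTPases: Igtp had -2.50, -3.27 and -3.39 at 1 h, 12 h and 72 h and -1.91 without irradiation, and Irgm2 -1.38, -2.35 and -2.42 and -1.01. At 1 h, the 4 genes with the smallest p in lung also included Trim46 (-0.60, -0.83 and -0.76, against -0.22, -0.81 and -0.28) and Ifngas1, a long noncoding RNA beside the interferon gamma gene (1.34, 0.97 and 1.20, against 0.53, 0.92 and 0.38).

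Strains differed in 3 of the genes in lung when averaged over the control and all times. The limma F test over the 4 arrays of each strain was passed by Ifi207 (adjusted p = 0.0103), Trim30d (0.0294) and Ifi203 (0.0443), 3 of 49 genes against a background of 2.95%, and 13 of 49 had an unadjusted p under 0.05 (background 23.7%). Ifi207 averaged -0.92 ± 0.11 in C57BL/6J, -0.62 ± 0.19 in C3H/HeMs and 0.43 ± 0.38 in A/J (SD, n = 4 each). All 8 arrays of C57BL/6J and C3H/HeMs lay below all 4 of A/J. Ifi203 averaged 0.09 ± 0.25 in C57BL/6J, 0.19 ± 0.14 in C3H/HeMs and 1.03 ± 0.52 in A/J (SD, n = 4 each), and with its first probe alone the adjusted p was 0.353. With values at the limit or exactly 0 set to missing, the adjusted p of Ifi203 by the same F test was 0.0532. Trim30d averaged 0.89 ± 0.17 in C57BL/6J, -0.53 ± 0.24 in C3H/HeMs and -0.40 ± 0.69 in A/J (SD, n = 4 each). Its C57BL/6J arrays lay between 0.74 and 1.06, above all 8 arrays of the other strains, and its A/J arrays fell into the pair of the early times (0.34 and 0.04) and the pair that stood apart (-0.88 and -1.08). The neighbour Trim30a pointed the same way, with 0.61 ± 0.20 in C57BL/6J and 0.02 ± 0.21 in A/J (SD, n = 4 each), at an adjusted p of 0.0726. Without the 4 lung arrays that stood apart, 0 of the 49 genes passed (adjusted p = 0.103 for Ifi207, 0.105 for Trim30d and 0.0912 for Ifi203). With all lung arrays kept and the set of arrays as a block, Ifi207 passed, and Trim30d (adjusted p = 0.181) and Ifi203 (0.1) did not. Of 15 fits that left out 1 lung array or 1 strain, Ifi203 lost its call in 15, Trim30d in 10 and Ifi207 in 3, those without a whole strain. A strain difference on a cDNA probe can also come from sequence differences or copies of the gene, which was not tested.

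**Figure D4:**
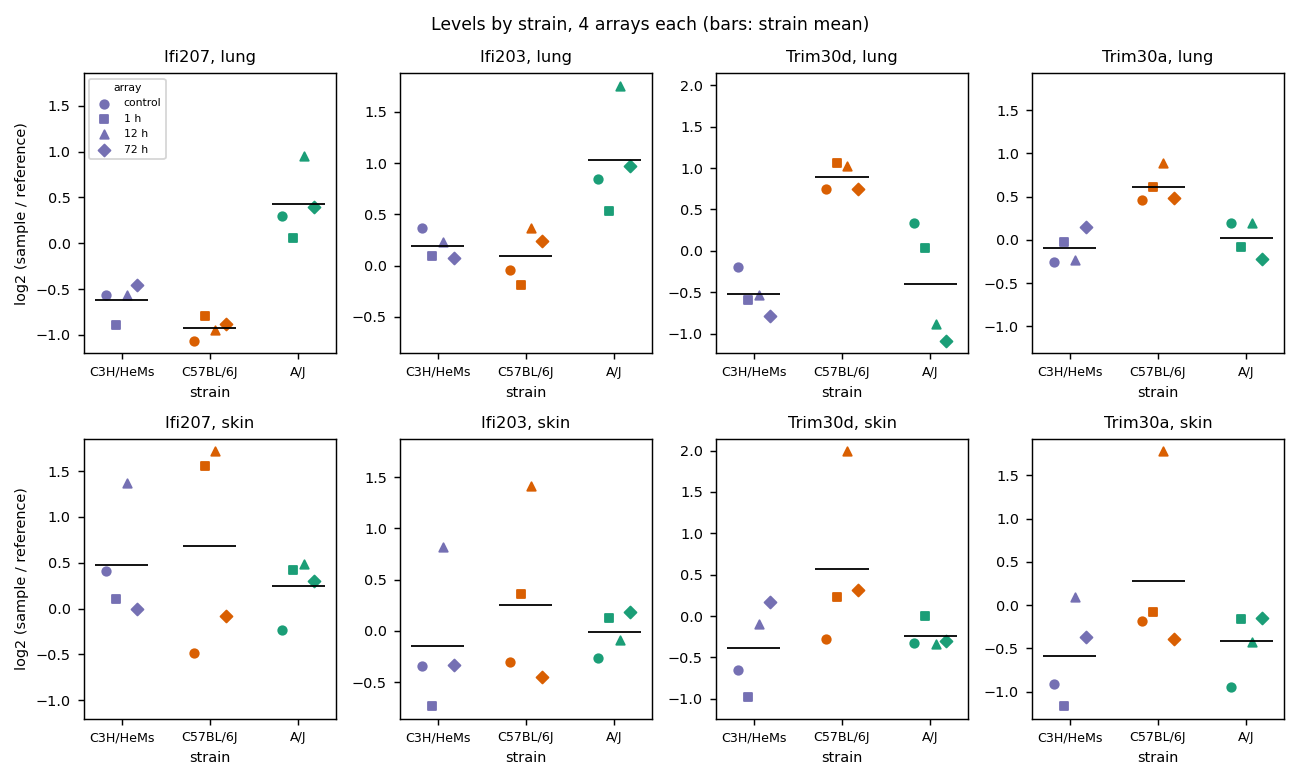
Levels (log2 of sample over reference) of Ifi207, Ifi203, Trim30d and Trim30a on the 4 arrays of each strain in lung (top) and skin (bottom); bars are strain means and symbols the time. In lung the A/J points of Ifi207 (0.06 to 0.95) and the C57BL/6J points of Trim30d (0.74 to 1.06) lie apart from the other strains, while in skin the strains overlap for all 4 genes.

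In skin 0 of 49 genes passed the strain test by limma (background 0.377%), and 6 had an unadjusted p under 0.05 (background 19.1%). Ifi207 in skin averaged 0.68 for C57BL/6J, 0.47 for C3H/HeMs and 0.24 for A/J, so its order was not that of lung, and the strains overlapped. Nearest to the threshold was Oas1f, with 4.04 ± 0.48 in C3H/HeMs, 2.74 ± 0.72 in C57BL/6J and 3.73 ± 0.19 in A/J (SD, n = 4 each, limma adjusted p = 0.0794). All 4 arrays of C57BL/6J lay below all 4 of A/J, and 1 of them, at 72 h, above the C3H/HeMs control.

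The genes also differed between the tissues without irradiation. By limma 19 of 49 passed in non-irradiated skin against non-irradiated lung, which is 38.8% against a background of 58.1%: 13 were higher in skin and 6 lower (backgrounds 35.6% and 22.5%). Tissue and dye cannot be told apart in these values. Oas1f had the largest difference, with 3.55, 1.76 and 3.38 in skin, against 0.04, 0.02 and 0.63 in lung (2.67 ± 0.41, SE, limma adjusted p = 4.37e-05). Trim8 differed by 1.75 ± 0.16 (limma adjusted p = 1.27e-07) and Tap1, at 1.14, 1.08 and 1.15 in skin against -0.31, -0.64 and -0.93 in lung, by 1.75 ± 0.25 (1.76e-05). Ifitm6 was higher by 1.70 ± 0.40, Trim2, a ligase studied in neurons, by 1.67 ± 0.32, and Stat3 by 1.11 ± 0.20 (all SE). Trim13, Irf5, B2m, Irf2bp2, Trim62, Trim23 and Irgm1 were higher by 0.59 to 1.03.

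Lower in skin were 5 Trim genes and Ifngas1. Ifngas1 had -0.27, -1.21 and -1.17 in skin, against 0.53, 0.92 and 0.38 in lung (-1.49 ± 0.34, SE, limma adjusted p = 0.00122). Trim27 differed by -1.18 ± 0.38, Trim21, a cytosolic antibody receptor, by -0.94 ± 0.24, Trim6 by -0.92 ± 0.34, Trim25 by -0.84 ± 0.25 and Trim30a by -0.81 ± 0.32 (all SE). B2m, Irgm1, Trim23 and Trim62 lost the call with another scaling of the arrays (adjusted p from 0.0675 to 0.204), and B2m and Trim30a lost it without the strain block (0.0942 and 0.123). B2m and Trim30a also lost it without the 4 lung arrays that stood apart (0.0736 and 0.0641). Of 27 fits that left out 1 array or 1 strain, B2m lost its call in 15 and Trim30a in 9. In the same comparison 0 of 10 B cell markers were higher in skin and 6 were lower, and the part of those cells was not tested. Among the GTPases Irgm1 alone passed, and of the class I genes Tap1 and B2m.

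**Figure D5:**
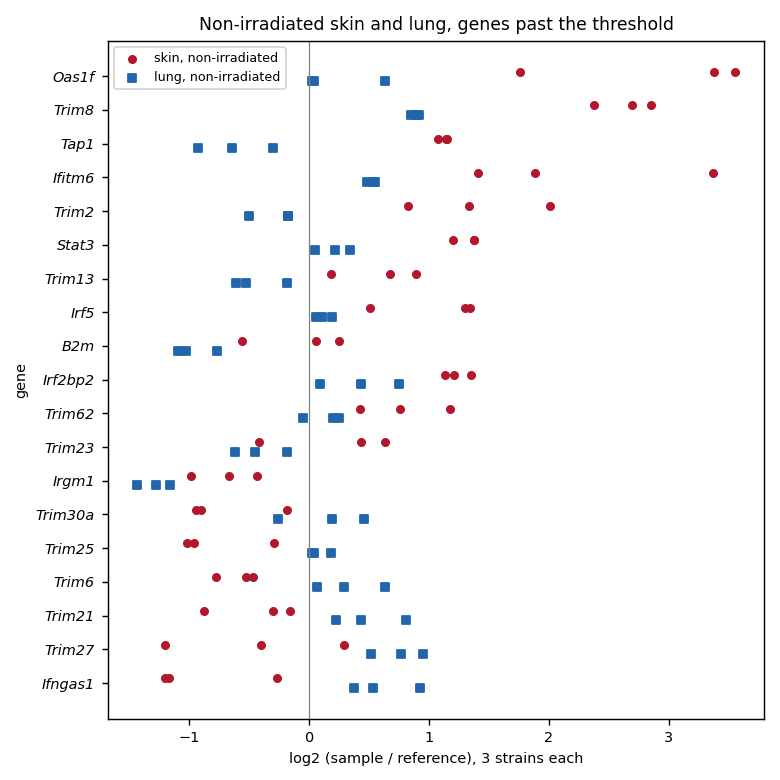
Levels (log2 of sample over reference) on the 3 non-irradiated skin arrays (red circles) and the 3 non-irradiated lung arrays (blue squares) for the 19 genes past the threshold, ordered by difference. The skin points of Oas1f (1.76 to 3.55) and Trim8 (2.38 to 2.85) lie far above those of lung, and Ifngas1 lies at the other end.

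Of 30 further interferon pathway genes on the array 27 had positive mean changes at 12 h in skin (background 45.3%), 16 of them in all 3 strains (background 10.3%), with a median of 0.54 (0.34 without the C57BL/6J array). By limma 0 passed (background 0%), with 7 higher at an unadjusted p under 0.05 (background 2.99%). Ly6e, an interferon-induced surface protein that blocks virus fusion, was higher by 1.07, 1.53 and 1.04 (1.21 ± 0.27, SE, limma adjusted p = 0.275) and at 72 h by 1.21, 0.97 and 1.56. Nampt, an enzyme of NAD synthesis, was lower in skin at 72 h, with changes of -0.57, -0.71 and -1.71 (limma adjusted p = 0.65). Ikbke, the kinase that activates Irf3 and Irf7, was higher by 0.56, 0.78 and 1.06, and Samhd1, which depletes nucleotides, by 0.67, 1.76 and 0.32. Socs3, the inhibitor of Stat3 signalling, was higher in skin at 1 h by 1.82, 2.02 and 0.46 (limma adjusted p = 1). In lung at 12 h the median of the 30 was 0.17, and 0.18 in C57BL/6J alone. There Herc6, a ligase for Isg15, had changes of 0.77, 0.24 and 0.51, and Cgas, a sensor of cytosolic DNA, of -2.05, 0.13 and -1.37 (limma adjusted p = 0.349 for both). Of 9 further class I genes, which include constitutive proteasome subunits and loading chaperones, 5 had positive changes in skin at 12 h (background 45.3%), with a median of 0.16, and 1 at 72 h (background 49%), with a median of -0.24. No gene of either list passed against control at any time in lung or skin by limma. By promoter, the 18 members with the response element had a median change of 0.56 in skin at 12 h and 16 positive changes, and the 27 matched members without it a median of 0.17 and 20 positive changes (background 45.3%). For the gamma-activated site the order was the other way, with a median of 0.08 and 8 positive changes for the 11 members with it, and 0.43 and 28 for the 34 without. Both are descriptions of genes that were not chosen at random.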

How the data were processed

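Per the submitters' processing notes, arrays were read with Agilent Feature Extraction. No version, background step or dye step is given in the sources used here. The deposited values are log10 ratios of Cy5 over Cy3 that the authors made for each probe. The file holds no brightness, so dim probes could not be marked. Lung signs were turned, values multiplied by 3.32 to log2 and centred on each array's median, and probes of a gene averaged, which gave 8750 features from 9275 probes. Probes were named from the platform annotation, with 0 of 52 member symbols changed by a current table. Among member probe values 3 were exactly 0.

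Tests used limma 3.58.1 in R 4.3.3 on each tissue's 12 arrays, with 4 groups and strain as a block (6 residual degrees of freedom), or on all 24 arrays to compare tissues, with Benjamini-Hochberg adjustment over all features at 0.05. The scripts were tested on simulated data. Replicate numbers stand for strains: deviations from group means of arrays of 1 strain correlated at -0.05 to 0.71 in lung and -0.05 to 0.68 in skin. Members, roles, lists and tests were chosen with earlier results of these data known. Values on every array are given for genes that passed a test, the 4 with the smallest p in each tissue and time, and others the text turns on, chosen after their values were seen. Promoter windows come from RefSeq (GRCm38.p6).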

Additional observations from a re-analysis of the deposited data

How the results depend on the processing

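Alternatives were quantile scaling, no centring, the first probe of each gene, values at the limit or exactly 0 set to missing, limma with trend and robust, no replicate block, 1 fit of all 24 arrays, the set of lung arrays as a block, the 4 lung arrays that stood apart left out, and each array or strain left out. Counts of genes past the threshold at each time were 0 under all of them except in 1 fit of all 24 arrays, where skin at 12 h, skin at 72 h and all irradiated skin each gave 1, lung strains 1 and skin strains 4. Lung strains, 3 in the report, gave 1 with the set of lung arrays as a block and 0 without the 4 arrays, and 0 to 2 when an array or strain was left out (0 without all C57BL/6J or all C3H/HeMs arrays). The skin strain count was 0 to 1, with 1 only without the C3H/HeMs array at 12 h. Non-irradiated skin against lung gave 11 to 20 genes, 11 without C3H/HeMs, and 17 with no replicate block, which moved no count against control from 0. In alternatives added after seeing the data, skin at 12 h gave 34 to 44 genes higher, 2 to 17 at an unadjusted p under 0.05 (7 without the A/J control, 4 without the C57BL/6J control or 12 h array, 5 without the C3H/HeMs 12 h array or all C3H/HeMs, 2 without all C57BL/6J) and 15 to 24 apart from the controls (fewer arrays to clear: 21 without A/J, 24 without C3H/HeMs); the median ran from 0.21 without the A/J control to 0.69 without the A/J array at 12 h. No called direction between tissues reversed, while F tests have no sign. The median of the 49 genes kept its sign in skin at 12 h but not elsewhere when an array or strain was left out: for lung it ran from -0.07 to 0.03 (1 h), -0.05 to 0.11 (12 h) and -0.05 to 0.04 (72 h), and for skin from -0.17 to 0.02 (1 h) and -0.05 to 0.19 (72 h). It also changed sign for lung with quantile scaling (12 h) and no centring (72 h). The cause of the other differences was not tested. Limits: pools of 3 mice, 1 array per strain, tissue and time, unknown probe brightness, and tissue tied to dye, dose and irradiated site.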
